A study of Mus musculus with 9 samples.

Results

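Regulators of multiciliated cell formation were followed as a group of 10 genes, taken by name for their known role: Gmnc, Mcidas, Trp73, Myb, Foxn4, Foxj1 and Rfx3, which act in transcription, and Deup1, Ccno and Cdc20b, which act in the making of centrioles. Each was found by its gene symbol among the 18875 genes of the deposited expression table. The samples were whole lungs of wild-type (WT) BALB/c mice, 3 in each of 3 groups. In the long-term group fine airborne particles (PM2.5) were put into the nose at 10 mg/kg, 6 times with 3 days between doses. In the short-term group the same dose was given 1 time. In the PBS group mice had the long-term schedule with phosphate-buffered saline in place of particles, and no PBS samples matched to the short schedule were analysed here. The age and sex of the mice and the interval between the last dose and collection are not stated in the labels. Nor do the labels tie the samples of a group to separate mice, so every p-value covers the spread between these samples alone, which may be technical.

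Multiciliated cells line the airways and beat many motile cilia in concert to move mucus towards the throat. Their precursors leave the cell cycle and then build a large number of centrioles, many of them around ring-shaped platforms called deuterosomes, and each centriole docks at the surface as the base of a cilium. Gmnc and Mcidas start this programme under the restraint of Notch signalling, further transcription factors extend it, and Foxj1 and RFX factors turn on the genes of the cilium itself.

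Levels are given as TPM, the share of a transcript among all transcripts of a sample, corrected for transcript length. The genes of alveolar epithelium were abundant in every sample, with Sftpc at 19628 to 38597 TPM, and so was the club cell gene Scgb1a1. Foxj1, the defining gene of ciliated cells, was at 68.71 TPM or more in every sample. The short-term samples stood apart in that long transcripts were low in them. The median log2 difference from the PBS mean was lower in the fifth of genes with the longest transcripts than in the fifth with the shortest, by -1.37, -0.61 and -0.84 in short-term replicates 1, 2 and 3, against -0.18 to -0.11 in the long-term samples and -0.055 to 0.043 in the PBS samples. Results on the short-term group are therefore also given after each sample was corrected for the length and GC content of transcripts. That correction moved the median change of all tested genes to -0.02 against -0.34 without it in the comparison of the short-term group with PBS, and to -0.02 against 0.41 in that of the long-term with the short-term group. In these whole-lung samples, a change in the number of cells of a type and a change in RNA per cell cannot be told apart.

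The start regions of 9 of the 10 regulators were matched in RefSeq (build GRCm38.p6), as 12 windows of 300 bases that run from 250 bases before to 50 bases after a transcription start, and Foxj1 had none. The 4 windows below are shown because Mcidas, Ccno and Cdc20b are neighbours on chromosome 13 and, with Deup1, changed strongly in the comparisons that follow. Capitals mark GTTGCC on either strand, the core of the X-box motif that RFX factors are known to bind, and the sequences run 5′ to 3′ on the strand of the gene.
Mcidas (chr13:112993618-112993917, plus strand): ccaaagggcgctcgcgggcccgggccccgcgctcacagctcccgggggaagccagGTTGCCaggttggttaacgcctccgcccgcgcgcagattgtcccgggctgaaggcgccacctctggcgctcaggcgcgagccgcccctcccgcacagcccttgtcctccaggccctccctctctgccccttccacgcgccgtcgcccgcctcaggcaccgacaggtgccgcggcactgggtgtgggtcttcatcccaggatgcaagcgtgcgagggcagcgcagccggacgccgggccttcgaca
Ccno (chr13:112987552-112987851, plus strand): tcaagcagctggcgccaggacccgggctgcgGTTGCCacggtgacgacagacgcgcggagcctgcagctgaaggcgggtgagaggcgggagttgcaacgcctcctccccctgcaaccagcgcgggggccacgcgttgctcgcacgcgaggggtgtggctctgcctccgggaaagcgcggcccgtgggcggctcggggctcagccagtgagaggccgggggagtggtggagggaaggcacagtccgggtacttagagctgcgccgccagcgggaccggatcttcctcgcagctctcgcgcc
Cdc20b (chr13:113035129-113035428, plus strand): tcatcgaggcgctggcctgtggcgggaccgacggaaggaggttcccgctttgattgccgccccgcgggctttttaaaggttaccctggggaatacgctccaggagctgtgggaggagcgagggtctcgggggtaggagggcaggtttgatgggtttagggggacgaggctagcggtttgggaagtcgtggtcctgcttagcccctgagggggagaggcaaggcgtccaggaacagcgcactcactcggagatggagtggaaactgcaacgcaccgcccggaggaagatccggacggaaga
Deup1 (chr9:15627797-15628096, minus strand): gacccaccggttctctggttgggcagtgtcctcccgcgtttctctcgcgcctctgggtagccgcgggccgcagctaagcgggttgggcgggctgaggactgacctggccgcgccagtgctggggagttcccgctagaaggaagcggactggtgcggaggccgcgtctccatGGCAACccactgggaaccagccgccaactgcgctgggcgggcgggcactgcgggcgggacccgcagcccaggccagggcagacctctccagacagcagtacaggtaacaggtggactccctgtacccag
Counted from the transcription start, the match began at position -195 in Mcidas, -219 in Ccno and -79 in Deup1, and the Cdc20b window held none. The windows shown for Mcidas, Cdc20b and Deup1 lie wholly inside the gene spans given below. The starts counted from are therefore not the outer ends of those spans. Deup1 has a further window (chr9:15628257-15628556), not shown, which held no GTTGCC. Among the other windows GTTGCC was found in that of Rfx3 and in the Trp73 window at chr4:154139826-154140125. The Trp73 window at chr4:154097124-154097423 held none.

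GTTGCC was thus present in 5 of the 12 windows of the regulators, in 9 of 23 windows of the axoneme genes described later, and in 12.5% of all 32851 windows of the reference, or 12.9% of the windows of tested genes. Motifs of other factors of the programme were searched in the same way on both strands. TTCCCGC, an E2F motif, was in 3 windows (Cdc20b, Deup1 and Trp73) and in 4.60% of all windows and 7.77% of those of tested genes. TTGGCGC, another E2F motif, was in 1 (Trp73), in 2.45% of all and in 3.91% of those of tested genes. GTAAACA, a forkhead motif, was in 1 window (Myb), in 3.65% of all and in 2.58% of those of tested genes. The MYB motif CAACNG was in 6 windows, in 35.0% of all and in 32.8% of those of tested genes, and TAACNG was in 4 windows, in 23.3% of all and in 19.6% of those of tested genes. In Ccno and Rfx3 a match of CAACNG on the opposite strand overlapped GTTGCC. A match is a description of these letters and not a bound site.

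Long-term PM2.5 against PBS sets repeated particle doses against the control of the same schedule. Of the 10 regulators, 9 were higher and none was lower with long-term PM2.5 at an adjusted p under 0.05 in limma on log2(TPM + 1), where 9.51% of 13991 tested genes were higher and 1.72% lower. Rfx3 did not pass. In each of the 10 every long-term sample was above every PBS sample, which held for 25.9% of all tested genes, while 17.4% had every long-term sample below every PBS sample. Gmnc, Mcidas, Foxn4 and Cdc20b reached the 1 TPM needed for testing in the long-term samples alone, so their place among the tested genes already depended on their high level there. The other 6 reached 1 TPM in other groups too. The median log2 change of all tested genes was 0.03.

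Gmnc (gene ID 239789, chr16:26957235-26991675, minus strand) encodes a coiled-coil protein of the geminin family that acts at the top of the programme. It was at 2.32, 1.84 and 1.75 TPM in the long-term samples, against 0.48, 0.82 and 0.84 TPM in the PBS samples. The groups did not overlap, at a low level throughout. The means were 1.97 ± 0.306 TPM with long-term PM2.5 and 0.713 ± 0.202 TPM with PBS (SD, n = 3 each), and the log2 fold change was 0.80 ± 0.16 (SE; limma adjusted p = 0.0101). Without PBS replicate 1 the limma adjusted p was 0.0558, and over all alternatives it ranged between 0.00248 and 0.0558.

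Mcidas (gene ID 622408, chr13:112993581-113000394, plus strand) encodes multicilin, which binds E2F factors and directs them to the genes of centriole production. It was at 12.31, 10.52 and 12.21 TPM in the long-term samples, against 0.51, 0.62 and 0.32 TPM in the PBS samples. The PBS samples were all under 1 TPM, and the long-term samples lay close together far above them. Mean TPM was 24.2-fold higher, and the log2 fold change of TPM + 1 was 3.10 ± 0.14 (limma adjusted p = 1.17e-06), the largest among the 10 regulators on this scale.

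**Figure D1:**
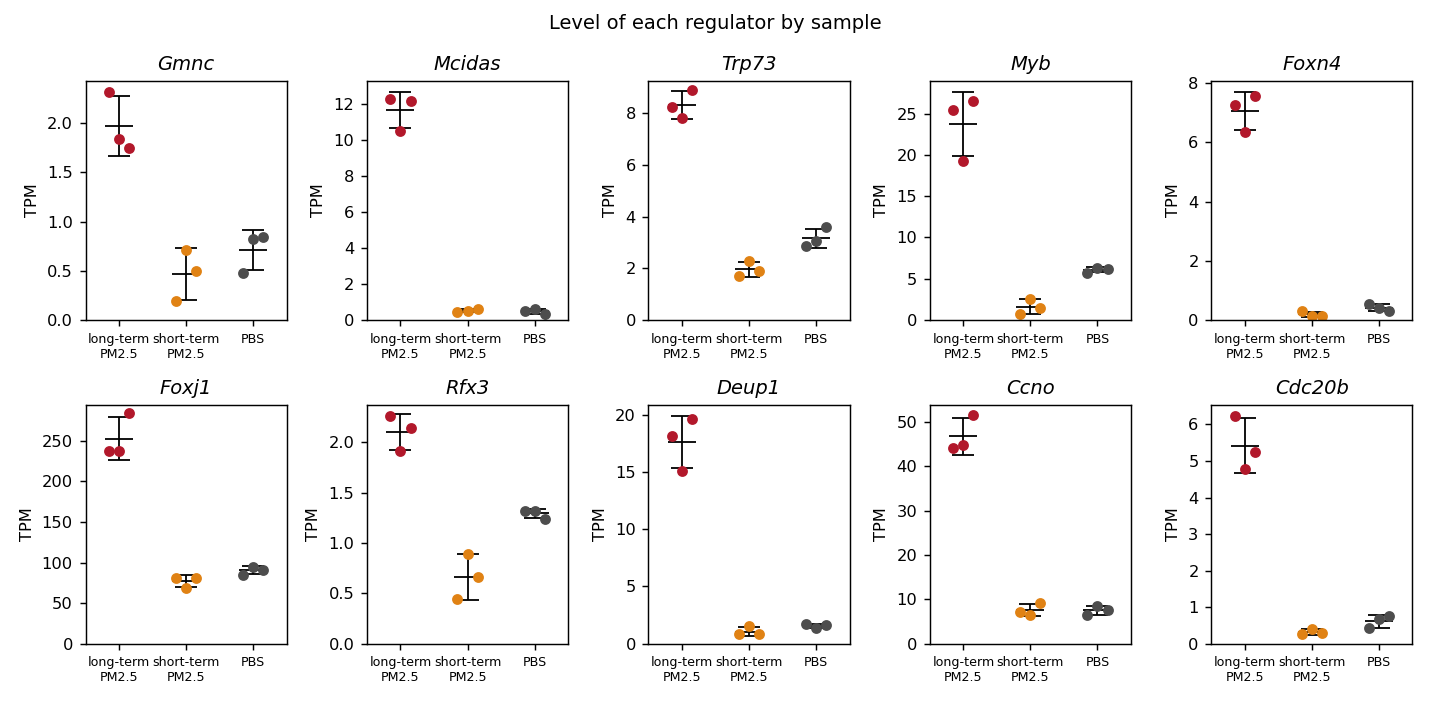
Level of each regulator in TPM (vertical axis, own scale from 0 in each panel) in the long-term PM2.5, short-term PM2.5 and PBS samples, left to right; points are samples, and bars are the mean ± SD of 3 samples. In every panel the long-term samples lie above all others, as for Mcidas at 10.52 to 12.31 TPM with long-term PM2.5, 0.45 to 0.61 TPM with short-term PM2.5 and 0.32 to 0.62 TPM with PBS.

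Trp73 (gene ID 22062, chr4:154056249-154139875, minus strand) encodes p73, a p53 family factor needed for multiciliated cells in the mouse airway. It was at 8.25, 7.81 and 8.88 TPM in the long-term samples, against 2.87, 3.04 and 3.58 TPM in the PBS samples. Mean TPM was 2.63-fold higher, a log2 fold change of 1.16 ± 0.14 (limma adjusted p = 0.000648), with no overlap of the groups. Its relative Trp63, the p53 family factor of basal cells, stayed under 1 TPM everywhere, at 0.43 to 0.52 TPM with long-term PM2.5 and 0.36 to 0.66 TPM with PBS, and was not tested.

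Myb (gene ID 17863, chr10:21124930-21160984, minus strand) encodes a transcription factor that is switched on early in multiciliated precursors and is also known from blood progenitors. It was at 25.39, 19.31 and 26.49 TPM in the long-term samples, against 5.75, 6.32 and 6.15 TPM in the PBS samples. The long-term samples were spread over a wider range than the PBS samples, but the lowest of them was still well above. Mean TPM was 3.91-fold higher, and the log2 fold change was 1.79 ± 0.24 (limma adjusted p = 0.00109).

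Foxn4 (gene ID 116810, chr5:114254164-114274418, minus strand) encodes a forkhead factor that in the frog Xenopus acts beside multicilin. Its values were 7.27, 6.34 and 7.55 TPM in the long-term samples, against 0.54, 0.39 and 0.30 TPM in the PBS samples. As with Mcidas, the PBS samples were near 0 and the long-term samples close together. Mean TPM was 17.2-fold higher, and the log2 fold change was 2.51 ± 0.13 (limma adjusted p = 4.18e-06).

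Foxj1 (gene ID 15223, chr11:116330704-116335499, minus strand), the forkhead factor that switches on the genes of motile cilia, was the most abundant regulator in all 3 groups. It was at 237.31, 236.68 and 283.49 TPM in the long-term samples, against 85.21, 94.96 and 90.65 TPM in the PBS samples. The groups were far apart relative to their spread, with a 2.80-fold higher mean TPM and a log2 fold change of 1.47 ± 0.12 (limma adjusted p = 5.12e-05).

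Rfx3 (gene ID 19726, chr19:27761721-28014669, minus strand) encodes an RFX factor that binds the X-box of ciliary genes. It was at 2.26, 1.91 and 2.14 TPM in the long-term samples, against 1.32, 1.32 and 1.24 TPM in the PBS samples. The samples did not overlap, but the log2 difference of 0.43 ± 0.13 did not pass (limma adjusted p = 0.0645). Its adjusted p in limma ranged between 0.0198 and 0.221 over the alternatives, and it passed in 5 of them, among them the fit of these 2 groups alone (0.0198) and the fit without short-term replicate 1 (0.0229). Its relatives Rfx2 (log2 difference 0.28, limma adjusted p = 0.340) and Rfx1 (0.00, limma adjusted p = 0.994), which are also expressed in ciliated cells, did not pass.

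Among the genes of the deuterosome, Deup1 (gene ID 234964, chr9:15559864-15628351, minus strand) encodes its scaffold protein. It was at 18.12, 15.09 and 19.59 TPM in the long-term samples, against 1.70, 1.40 and 1.61 TPM in the PBS samples. Mean TPM was 11.2-fold higher, and the log2 fold change was 2.85 ± 0.17 (limma adjusted p = 9.65e-06). Cep63, the relative of Deup1 that serves the centrosome of all dividing cells, was at 23.28, 22.38 and 25.27 TPM with long-term PM2.5 and 24.88, 20.08 and 24.11 TPM with PBS. Those samples overlapped (log2 difference 0.04, limma adjusted p = 0.944).

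Ccno (gene ID 218630, chr13:112987802-112990778, plus strand) encodes cyclin O, an atypical cyclin needed for centriole production, whose loss in people impairs the clearing of mucus. It was at 44.08, 44.73 and 51.65 TPM in the long-term samples, against 6.59, 8.57 and 7.50 TPM in the PBS samples. The groups were well apart, with a 6.20-fold higher mean TPM and a log2 fold change of 2.49 ± 0.16 (limma adjusted p = 1.39e-05).

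Cdc20b (gene ID 238896, chr13:113034975-113121019, plus strand) encodes a relative of the mitotic activator Cdc20 that is needed for the release of centrioles from the deuterosome. It was at 6.24, 4.78 and 5.24 TPM in the long-term samples, against 0.42, 0.68 and 0.75 TPM in the PBS samples. Mean TPM was 8.79-fold higher, and the log2 fold change was 1.99 ± 0.14 (limma adjusted p = 2.32e-05). Cdc20 itself was at 28.92, 24.15 and 21.56 TPM with long-term PM2.5 and 7.58, 6.87 and 7.63 TPM with PBS, and rose by 1.62 ± 0.15 on the log2 scale (limma adjusted p = 0.000124).

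**Figure D2:**
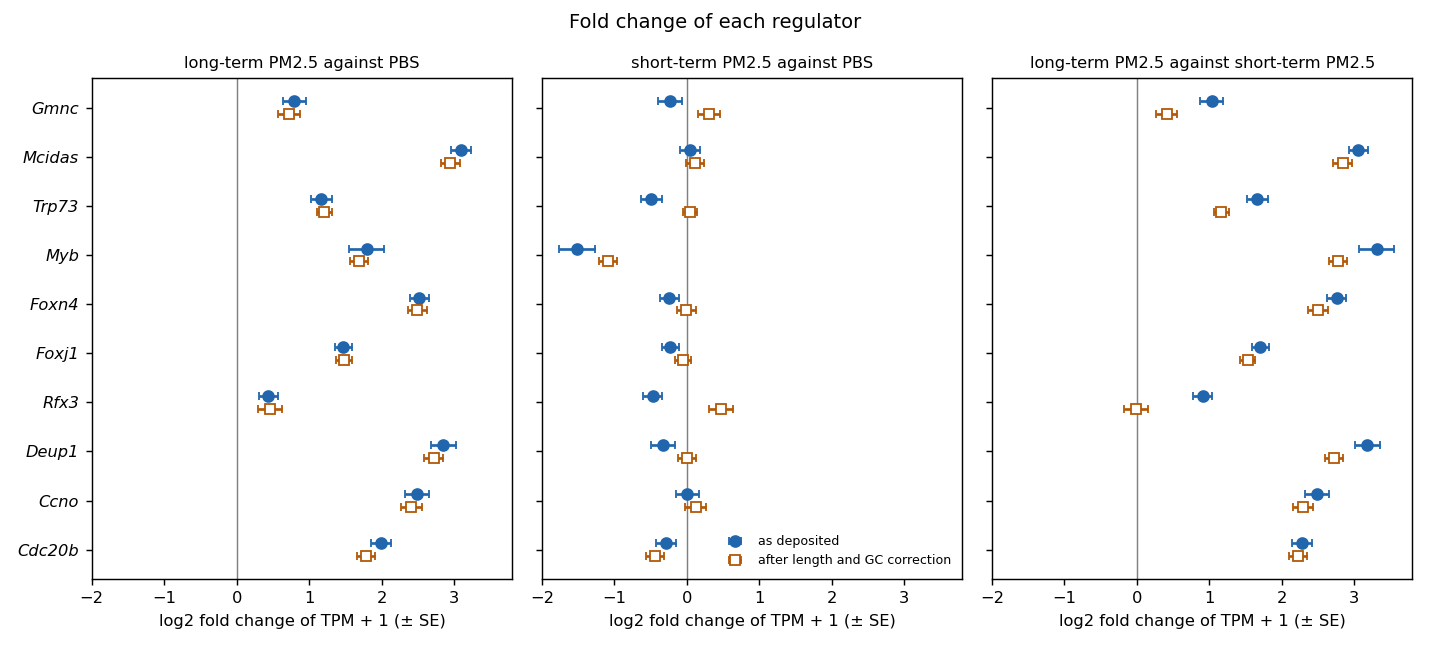
Log2 fold change of TPM + 1 (horizontal axis, ± SE) of each regulator for long-term PM2.5 against PBS, short-term PM2.5 against PBS, and the long-term against the short-term group; filled circles are values as deposited and open squares values after the length and GC correction. Against PBS, long-term PM2.5 gave 3.10 for Mcidas and 0.43 for Rfx3 as deposited, whereas Rfx3 changed sign with short-term PM2.5, -0.47 as deposited and 0.47 corrected.

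Ccno, Mcidas and Cdc20b lie side by side on the plus strand of chromosome 13, within 133 kb (chr13:112987802-113121019, GRCm38.p6). A gap of 2802 bases separates Ccno and Mcidas, and a gap of 34580 bases separates Mcidas and Cdc20b. The nearest measured genes outside the 3 did not pass in long-term PM2.5 against PBS. On the Ccno side these were Dhx29 (log2 difference -0.03, limma adjusted p = 0.975) and Mtrex (-0.05, limma adjusted p = 0.957), and beyond Cdc20b they were Gzmk (0.35, limma adjusted p = 0.338) and Esm1 (-0.05, limma adjusted p = 0.969). Gpx8 and Gzma, added after their values were seen, lie on the minus strand inside the annotated span of Cdc20b. Gpx8 differed by 0.11 (limma adjusted p = 0.892) and Gzma by -0.28 (limma adjusted p = 0.700). Whether reads were assigned by strand is not stated in the labels, so reads of Cdc20b and of these genes could be mixed where their exons overlap.

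**Figure D3:**
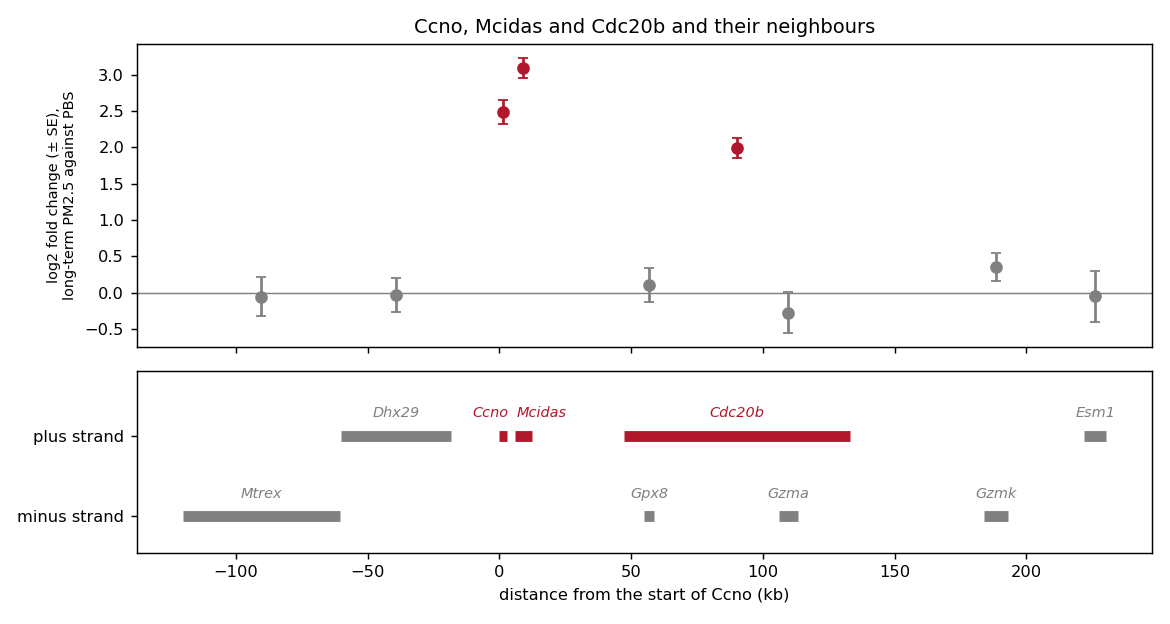
Log2 fold change of TPM + 1 (± SE) for long-term PM2.5 against PBS (top, vertical axis) and position of the genes on each strand (bottom) against the distance from the start of Ccno in kb (horizontal axis). Ccno, Mcidas and Cdc20b stand at 2.49, 3.10 and 1.99, and the 6 genes around and between them lie between -0.28 and 0.35.

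The span of Cdc20b also holds miRNAs of the miR-449 family, which are known to act in multiciliated cells. They were not analysed here, and their mature sequences (RefSeq, GRCm38.p6, plus strand) are shown because they lie within a gene that rose. Capitals mark the seed, bases 2 to 8, which both miRNAs share.
mmu-miR-449c-5p (chr13:113036008-113036028): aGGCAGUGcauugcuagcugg
mmu-miR-449a-5p (chr13:113037549-113037570): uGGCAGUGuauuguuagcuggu

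The regulators were then set against the cilium they direct. The axoneme is the motile core of the cilium. Of 25 axoneme genes 23 were higher and none lower with long-term PM2.5 against PBS, with a median log2 difference of 1.05. Of all tested genes 9.51% were higher and 1.72% lower. Zmynd10 (1.47), Rsph1 (1.32), Dnaic2 (1.33) and Tekt1 (1.24) had the smallest adjusted p in limma, between 0.000194 and 0.000527. Leaving out single samples gave 20 to 24 axoneme genes higher. With short-term PM2.5 against PBS 1 was higher and 13 were lower, where 40.3% of all tested genes were lower, and after the length and GC correction 1 was higher and 8 lower, where 26.4% were lower. Between long-term and short-term PM2.5 all 25 were higher, where 43.4% of all tested genes were, and 24 after the correction, where 19.6% were. Zmynd10, an assembly factor of dynein arms, was at 31.32, 32.83 and 40.05 TPM with long-term PM2.5 and 11.66, 11.37 and 12.46 TPM with PBS. The mean log2(TPM + 1) of the 25 genes was 4.50, 4.55 and 4.83 in the long-term samples, against 3.62, 3.59 and 3.64 in the PBS samples, an increase of 1.01.

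In each sample the log2 level of a regulator was taken relative to that axoneme mean. Mcidas was at -0.96 relative to the axoneme mean with long-term PM2.5 and at -3.05 with PBS, a difference of 2.09. The difference was 1.84 for Deup1, 1.50 for Foxn4, 1.48 for Ccno, 0.98 for Cdc20b, 0.78 for Myb and 0.46 for Foxj1. Each of these 7 was higher relative to axoneme genes in every long-term sample than in any PBS sample, with an exact two-sided permutation p of 0.1, the smallest that 3 against 3 samples allow. Trp73 overlapped between the groups (0.15, exact permutation p = 0.2), and so did Gmnc (-0.21, exact permutation p = 0.3). Rfx3 was lower relative to axoneme genes in every long-term sample (-0.58, exact permutation p = 0.1). No regulator can reach 0.05 in this design. The order depended on the scale, since on log2(TPM + 0.1) the difference was 3.26 for Mcidas, 2.72 for Foxn4, 2.29 for Deup1, 1.86 for Cdc20b and 1.51 for Ccno.

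**Figure D4:**
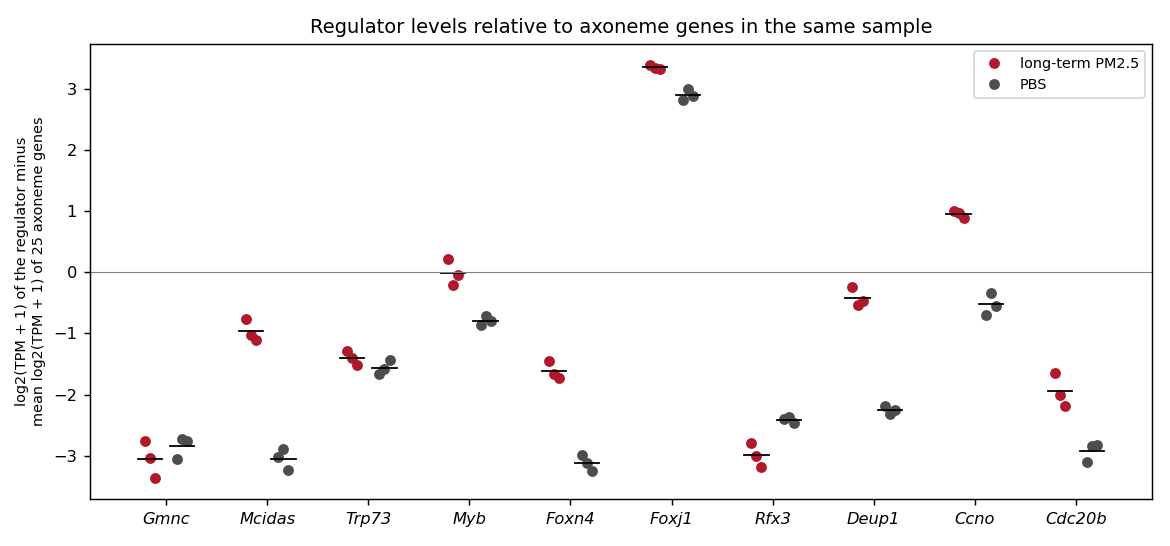
Log2(TPM + 1) of each regulator minus the mean log2(TPM + 1) of 25 axoneme genes in the same sample (vertical axis) for the 3 long-term PM2.5 samples and the 3 PBS samples; points are samples and lines are means. The means of Mcidas stand at -0.96 with long-term PM2.5 and -3.05 with PBS, those of Rfx3 at -2.99 and -2.42 in the same order.

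The order of the levels differed between the groups. With long-term PM2.5 it ran Foxj1, Ccno, Myb, Deup1, Mcidas, Trp73, Foxn4, Cdc20b, Rfx3 and Gmnc, and only the samples of Myb and Deup1 and those of Rfx3 and Gmnc overlapped among neighbours. With short-term PM2.5 the order was Foxj1, Ccno, Trp73, Myb, Deup1, Rfx3, Mcidas, Gmnc, Cdc20b and Foxn4, and all neighbours after Trp73 overlapped. With PBS it was Foxj1, Ccno, Myb, Trp73, Deup1, Rfx3, Gmnc, Cdc20b, Mcidas and Foxn4, and the last 4 overlapped as neighbours. Mcidas thus stood at place 5 with long-term PM2.5, 7 with short-term PM2.5 and 9 with PBS. Its places 7 and 9 do not show a rise of Mcidas itself. Its short-term and PBS samples overlapped, with a log2 difference of 0.04 (limma adjusted p = 0.808). The orders were taken as deposited, without the length and GC correction, and long transcripts were low in the short-term samples.

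Short-term PM2.5 against PBS sets a single particle dose against PBS given on the long-term schedule. The groups thus differ in the number of doses and in duration as well as in particles. None of the 10 regulators was higher and 3 were lower in limma at an adjusted p under 0.05, where 11.7% of all tested genes were higher and 40.3% lower. The 3 lower genes were Myb, Rfx3 and Trp73, and at an unadjusted p under 0.05 the counts were again 0 higher and 3 lower. After the length and GC correction 24.0% of the tested genes were higher and 26.4% lower, and the calls among the regulators became Myb and Cdc20b lower and Rfx3 higher. Every short-term sample was below every PBS sample in 5 regulators (Myb, Rfx3, Trp73, Cdc20b and Foxj1) and in 45.8% of all tested genes, and above in none of the 10 and in 14.5%.

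Myb was at 0.71, 2.52 and 1.51 TPM in the short-term samples, against 5.75, 6.32 and 6.15 TPM in the PBS samples. All short-term samples were below all PBS samples, and short-term replicate 1, in which long transcripts were lowest, was also the lowest for Myb. The log2 fold change was -1.52 ± 0.24 (limma adjusted p = 0.00106) as deposited and -1.08 ± 0.12 (limma adjusted p = 8.67e-05) after the correction. With each sample left out in turn it lay between -1.77 and -1.25.

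Rfx3, which has the longest transcript of the group at 9146 bases, was at 0.44, 0.89 and 0.66 TPM in the short-term samples, against 1.32, 1.32 and 1.24 TPM in the PBS samples. Its log2 fold change was -0.47 ± 0.13 (limma adjusted p = 0.0143) as deposited and 0.47 ± 0.17 (limma adjusted p = 0.0365) after the correction, so its direction depends on the correction. Trp73 was at 1.71, 2.28 and 1.89 TPM in the short-term samples, against 2.87, 3.04 and 3.58 TPM in the PBS samples. Its log2 fold change was -0.49 ± 0.14 (limma adjusted p = 0.0170) as deposited and 0.04 ± 0.10 (limma adjusted p = 0.747) after the correction. Without PBS replicate 3 the limma adjusted p of Trp73 was 0.0722.

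Mcidas and Ccno overlapped their PBS samples. Mcidas was at 0.45, 0.51 and 0.61 TPM in the short-term samples (log2 difference from PBS 0.04 ± 0.14, limma adjusted p = 0.808). Ccno was at 7.05, 6.58 and 9.24 TPM (0.01 ± 0.16, limma adjusted p = 0.979). Both changed sign when single samples were left out. Deup1 was at 0.81, 1.52 and 0.87 TPM in the short-term samples (-0.33 ± 0.17, limma adjusted p = 0.127; without short-term replicate 2, 0.0213) and Foxn4 at 0.30, 0.14 and 0.14 TPM (-0.24 ± 0.13, limma adjusted p = 0.143). Cdc20b was at 0.26, 0.40 and 0.30 TPM, below all PBS samples. Its log2 difference was -0.29 ± 0.14 (limma adjusted p = 0.105) as deposited and -0.44 ± 0.12 (limma adjusted p = 0.0135) after the correction.

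Foxj1 was at 80.75, 68.71 and 81.32 TPM in the short-term samples, also below all PBS samples, and did not pass (-0.23 ± 0.12, limma adjusted p = 0.119). Under median-ratio scaling the sign of its difference was reversed (0.12). Gmnc was at 0.19, 0.71 and 0.50 TPM in the short-term samples (-0.23 ± 0.16, limma adjusted p = 0.245, and 0.31 after the correction). A miss of the threshold does not show that a gene was at its PBS level.

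Long-term against short-term PM2.5 sets 6 doses against 1, without PBS, though the groups differ in duration as well. All 10 regulators were higher with long-term PM2.5 in limma, where 43.4% of tested genes were higher and 7.08% lower, and in each of the 10 the groups did not overlap, as in 50.2% of all tested genes, with 9.94% the other way round. After the length and GC correction 9 were higher, against 19.6% of all tested genes, and Rfx3 had a difference of -0.01 (limma adjusted p = 0.963). The log2 fold change of TPM + 1 was 3.31 ± 0.24 for Myb as deposited and 2.77 ± 0.12 corrected. Deup1 had 3.18 ± 0.17 and 2.71 ± 0.13 corrected, and Mcidas 3.06 ± 0.14 and 2.84 ± 0.13 corrected. The order of the regulators depended on the scale, since on log2(TPM + 0.1) Foxn4 was at 4.65, Mcidas at 4.24 and Myb at 3.97. By mean TPM as deposited, Foxn4 was 36.5-fold, Mcidas 22.3-fold, Cdc20b 16.9-fold, Deup1 16.5-fold and Myb 15.0-fold higher with long-term PM2.5. The short-term means of Foxn4, Mcidas and Cdc20b were 0.19, 0.52 and 0.32 TPM, so their ratios rest on values near 0. These 3 and Gmnc reached 1 TPM in the long-term samples alone. Their place among the tested genes, and in the count of 10, thus already depended on their high level there. Gmnc had 1.03 ± 0.16 (limma adjusted p = 0.00123) and 0.41 ± 0.15 after the correction (limma adjusted p = 0.0457).

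The genes around the regulators were followed in lists of the same pathway. Of 8 tested partners and relatives in transcription, which include the E2F factors bound by multicilin and the inhibitor geminin, none passed in long-term PM2.5 against PBS in limma (median 0.14), and 1 was higher at an unadjusted p under 0.05. E2f4 differed by -0.06 (limma adjusted p = 0.854), E2f5 by -0.03 (limma adjusted p = 0.977) and Gmnn, the gene of geminin, by 0.69 (limma adjusted p = 0.174). The number that were higher reached 2 when short-term replicate 1 was left out.

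Notch signalling from neighbouring cells restrains the multiciliated fate. Of its 14 tested genes Hes6 was higher with long-term PM2.5 against PBS and none was lower in limma. Of all tested genes 9.51% were higher and 1.72% lower. The median of the 14 was -0.39. At an unadjusted p under 0.05, for which no share of all tested genes was taken, 5 of them were lower. At the adjusted threshold the number lower ran between 0 and 6 when single samples were left out. Hes6, which encodes an inhibitor of Hes1 and is known from multiciliated cells, was at 93.60, 101.6 and 92.79 TPM in the long-term samples, against 46.83, 40.17 and 45.67 TPM in the PBS samples. That is a log2 fold change of 1.10 ± 0.13 (limma adjusted p = 0.000467) without overlap. After the length and GC correction 4 Notch genes were lower and 1 higher, where 11.6% and 12.4% of all tested genes were. Hes1 was then at -0.76 (limma adjusted p = 0.00993), against -0.52 (limma adjusted p = 0.0937) as deposited. With short-term PM2.5 against PBS, where no regulator was higher as deposited, 9 Notch genes were lower and 1 higher (median -0.83). Of all tested genes 40.3% were lower and 11.7% higher. The 1 higher was Hes6, which missed the threshold when single samples were left out. After the correction 8 Notch genes were lower and 2 higher, where 26.4% and 24.0% of all tested genes were.

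Of 22 genes of centriole assembly, a process that dividing cells also use, 4 were higher with long-term PM2.5 against PBS and none was lower (median 0.18). Of all tested genes 9.51% were higher and 1.72% lower. Cetn4, a centrin of multiciliated cells, was at 21.27, 16.20 and 23.58 TPM in the long-term samples, against 6.24, 8.01 and 5.23 TPM in the PBS samples (1.51 ± 0.25, limma adjusted p = 0.00316). Stil, a partner of the kinase Plk4 in starting a centriole, was at 2.70, 1.35 and 1.70 TPM in the long-term samples, against 0.15, 0.35 and 0.16 TPM in the PBS samples. Both were well apart between the groups, but Stil reached 1 TPM in the long-term samples alone, so its place among the tested genes already depended on its high level there. Poc1a (0.93, limma adjusted p = 0.0104) lost its call without long-term replicate 1 (0.0561) and without PBS replicate 1 (0.0597). Plk4 (1.06, limma adjusted p = 0.0389) lost its call when any of 6 samples was left out, with an adjusted p up to 0.165. The number higher was 2 without long-term replicate 1 and 8 without short-term replicate 1. It was also 8 after the length and GC correction, where 12.4% of all tested genes were higher.

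Multiciliated precursors are known to use parts of the mitotic machinery while making centrioles. Of 13 tested mitosis regulators 11 were higher with long-term PM2.5 against PBS and none was lower, with a median of 1.45. Of all tested genes 9.51% were higher and 1.72% lower. The 11 included Mki67 and Top2a, which dividing cells of any type express. Their means were 10.13 and 10.91 TPM with long-term PM2.5, against 3.46 and 3.31 TPM with PBS. The part of dividing cells of the lung in these levels was not tested. Ccna1, a cyclin known from germ cells and multiciliated cells, had the largest change of the list. It was at 14.99, 14.12 and 17.46 TPM in the long-term samples, against 0.53, 0.91 and 1.60 TPM in the PBS samples (3.07 ± 0.20, limma adjusted p = 1.23e-05). Plk1 (1.55) and Cdk1 (1.61), kinases of mitosis, also rose, with adjusted p in limma of 0.000285 and 0.000384. With short-term PM2.5 against PBS 3 of the list were higher, where 11.7% of all tested genes were, and 8 after the length and GC correction, where 24.0% were. The 3 were Cdk1 (0.95), Plk1 (0.74) and Cdc20 (0.46), with adjusted p in limma of 0.00252, 0.00519 and 0.0263. Without any 1 of the 3 PBS samples Cdc20 missed the threshold there, at an adjusted p up to 0.0799. Ccna1 was at 1.29, 1.63 and 1.63 TPM in the short-term samples and did not pass (limma adjusted p = 0.149). None of 9 genes that dock centrioles at the surface passed in limma in long-term PM2.5 against PBS (median 0.22), 1 was higher at an unadjusted p under 0.05, and 7 of them were lower with short-term PM2.5 against PBS, where 40.3% of all tested genes were, and 4 after the correction, where 26.4% were.

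**Figure D5:**
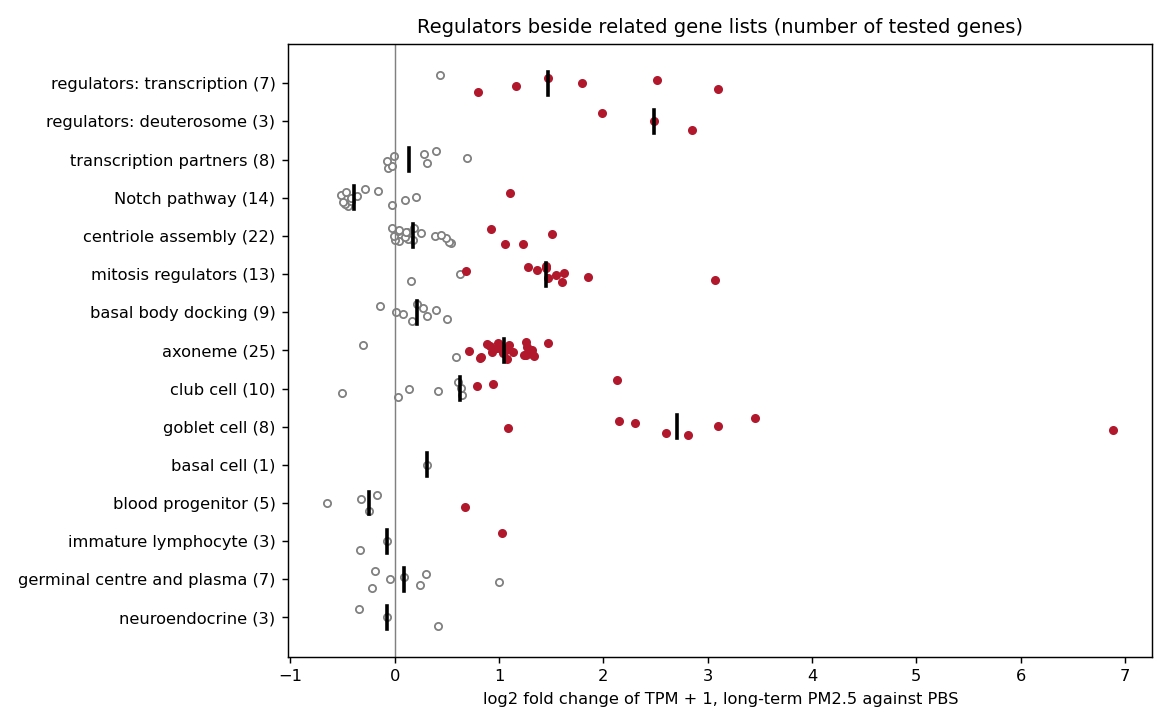
Log2 fold change of TPM + 1 for long-term PM2.5 against PBS (horizontal axis) of the regulators and of the genes of each list (rows); filled points passed at an adjusted p under 0.05 in limma, open points did not, and vertical bars are medians. The regulators have medians of 1.47 (transcription) and 2.49 (deuterosome), axoneme genes 1.05, centriole assembly genes 0.18 and Notch genes -0.39.

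Markers of other cells moved as well, in a comparison of long-term PM2.5 against PBS where 9.51% of all tested genes were higher and 1.72% lower. Of 9 goblet cell markers 8 could be tested, and all 8 were higher with long-term PM2.5 against PBS (median 2.70), and the summed level of the 9 was 267 to 332 TPM with long-term PM2.5 and 14.9 to 24.8 TPM with PBS. Of the 8, Muc5ac, Clca1 and Gp2 passed the filter on low levels through their long-term samples, since at most 1 sample of the other groups reached 1 TPM, so their place in this count already depended on their high level there. Of 10 club cell markers 3 were higher, Hp, Reg3g and Gabrp, of which Hp kept its call with every sample left out in turn. None of the 10 was lower, and at an unadjusted p under 0.05 the counts were 6 higher and 1 lower. Cyp2f2 was at 1757.9, 1818.2 and 1893.7 TPM with long-term PM2.5 and 2519.6, 2526.8 and 2703.5 TPM with PBS. The samples of Scgb1a1 overlapped between these groups. Of the 6 basal cell markers 1 could be tested, and their summed level was 3.57 to 5.85 TPM with long-term PM2.5 and 2.49 to 6.65 TPM with PBS. The part of these cell types in the levels of the regulators was not tested.

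Since Myb is also a gene of blood progenitors and immature lymphocytes, their markers were read beside it. The summed level of 10 blood progenitor markers was 249 to 261 TPM with long-term PM2.5, 146 to 268 TPM with short-term PM2.5 and 332 to 348 TPM with PBS, none of them at 0 throughout. With long-term PM2.5, where Myb was higher, 1 of the 5 tested was higher (Flt3, 0.67, limma adjusted p = 0.0147) and none was lower. The call of Flt3 was lost without long-term replicates 1 or 2 or PBS replicates 1 or 2 (limma adjusted p up to 0.0658). Of all tested genes 9.51% were higher and 1.72% lower against PBS. After the length and GC correction Flt3 was higher there (0.58) and Gata2 (-0.65) and Cd34 (-0.46) were lower, with adjusted p in limma of 0.0203, 0.0268 and 0.00473. Of all tested genes 12.4% were then higher and 11.6% lower. With short-term PM2.5, where Myb was lower, Gata2 (-0.91), Kit (-1.09) and Cd34 (-0.52) were lower, with adjusted p in limma of 0.00568, 0.0110 and 0.0476. That is 3 of the 5 tested, where 40.3% of all tested genes were lower. After the length and GC correction Gata2 (-0.59) and Kit (-0.44) were lower and Flt3 (0.70, limma adjusted p = 0.00368) was higher. Cd34 (-0.18, limma adjusted p = 0.121) did not pass. Of all tested genes 26.4% were then lower and 24.0% higher. As deposited, Cd34 also missed the threshold when any of 8 samples was left out, up to an adjusted p of 0.121. Of 8 immature lymphocyte markers 5 were under 1 TPM in every sample, Rag1 and Rag2 at no more than 0.08 TPM. Il7r, which mature lymphocytes also express, was higher with long-term PM2.5 (1.03, limma adjusted p = 0.0489) and lost its call when any of 7 samples was left out (up to 0.191). Of 7 tested germinal centre and plasma cell markers 0 passed in limma in long-term PM2.5 against PBS, with 2 higher at an unadjusted p under 0.05, and of 3 neuroendocrine markers 0 passed at either threshold. The part of blood cells in the level of Myb was not tested.

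Genes with a profile most like that of the regulators were found by Pearson correlation of log2(TPM + 1) with the mean standardised profile of the 10 regulators over the 9 samples. These values describe samples that share the group difference and carry no test. Mycl, a MYC family transcription factor, came first (r = 0.996), followed by Adam28, a membrane-anchored protease of the ADAM family (r = 0.994), and Nphp4, a protein of the base of the cilium (r = 0.993). The next were Wdr95 (r = 0.993), Dio1 (r = 0.991), Fam227a (r = 0.991), Dnaaf6b (r = 0.991), Bbof1 (r = 0.990), Ncs1 (r = 0.990) and Lrrc23 (r = 0.990). Mycl was at 21.64, 18.86 and 20.31 TPM with long-term PM2.5, 2.86, 4.67 and 4.21 TPM with short-term PM2.5 and 5.34, 6.05 and 6.34 TPM with PBS. Lrrc23, a protein of the radial spokes of the axoneme, was at 100.7, 97.85 and 125.0 TPM with long-term PM2.5, 17.75, 15.83 and 19.42 TPM with short-term PM2.5 and 25.77, 25.03 and 26.94 TPM with PBS. In both genes the long-term samples were highest and the short-term samples lowest, without overlap. Dio1, the type 1 deiodinase that converts thyroid hormone, was at 2.51, 1.93 and 2.47 TPM with long-term PM2.5, 0.18, 0.30 and 0.28 TPM with short-term PM2.5 and 0.29, 0.37 and 0.43 TPM with PBS.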

How the data were processed

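Total RNA of whole lung was enriched with oligo(dT) beads, and the libraries were treated with duplex-specific nuclease (DSN), which lowers abundant transcripts, and sequenced on DNBSEQ, per the labels' protocols. The authors deposited 1 table of TPM values. The submitters' processing notes name the tools HISAT2, Bowtie2, RSEM and DESeq2, without roles or versions, and the build GRCm38.p6 for 8 of 9 samples. TPM sums are nearly equal between samples, so depth is unknown and no counting interval is given.

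Tested genes (13991) had 1 TPM or more in 3 or more samples. They were fitted on log2(TPM + 1), which understates changes of low genes, with limma 3.58.1 (R 4.3.3) over 3 groups (6 residual degrees of freedom, intensity trend, Benjamini-Hochberg adjustment over all tested genes, threshold 0.05). The fit was tested on simulated data. No share of all tested genes was taken at an unadjusted p under 0.05, so counts at that threshold have no background beside them. The correction for length and GC content subtracts natural splines with 5 degrees of freedom each from each sample, and leaves out 199 tested genes. Positions and sequences are from RefSeq, lengths from GENCODE M21, and exact tests and figures used Python 3.11.15. Genes named are the regulators, their relatives, up to 4 genes of a list with the smallest adjusted p among those that passed, the 2 nearest neighbours on each side of the chromosome 13 cluster and the 10 most similar profiles; others are named as contrasts and were chosen after their values were seen. The regulators, lists and tests were chosen with earlier results of these data known.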

Additional observations from a re-analysis of the deposited data

How the results depend on the processing

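For long-term PM2.5 against PBS, 9 regulators were higher (8 to 10 over all alternatives) and 0 lower in each. All alternatives kept the direction of all 10. Tested genes higher numbered 1330, with 2500 from these 2 groups alone and 794 to 2152 leaving out each sample. Those lower numbered 241, with 512 under median-ratio scaling, 1157 under quantile normalization, 1604 after the length and GC correction, 1381 from 2 groups alone, 132 with the replicate block and 49 to 1005 leaving out each sample. For short-term PM2.5 against PBS, 3 regulators were lower, with 5 on log2(TPM + 0.1), 1 under quantile normalization and 2 to 4 leaving out each sample, and 1 was higher after the length and GC correction. Tested genes higher numbered 1632, with 3421 under median-ratio scaling, 3477 under quantile normalization and 3314 after the correction; lower 5636, with 3745 under quantile normalization and 3645 after the correction. Between long-term and short-term PM2.5, tested genes higher numbered 6070, with 3762, 2977 and 2710 under median-ratio scaling, quantile normalization and the correction, and 3917 to 8057 leaving out each sample. Those lower numbered 991, with 2756, 2996 and 3118 under the same settings and 615 to 1111 leaving out each sample.

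Signs reversed for short-term PM2.5 against PBS in Gmnc (0.31), Trp73 (0.043) and Rfx3 (0.47) after the length and GC correction, in Foxj1 (0.12) under median-ratio scaling, and leaving out each sample in Mcidas (-0.039 to 0.11) and Ccno (-0.12 to 0.093). Rfx3 was at -0.011 for the long-term against the short-term group after the correction. Relative to axoneme genes, Gmnc was at 0.26 on log2(TPM + 0.1) (exact permutation p = 0.4). The cause was not tested.

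The labels state no pairing by replicate number. Residuals of same-numbered samples correlated between -0.286 and 0.262, and those of different-numbered samples between -0.272 and 0.341. Residuals from the mean of a small group depend on one another, so these values cannot exclude a batch shared by number. With the replicate block 993 genes were higher and 132 lower for long-term PM2.5 against PBS, and 9 regulators were higher. The number of samples limits precision, and depth is unknown.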
